A study of Mus musculus with 12 samples.

Results

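The genes described here code for the enzymes that break down glucose to pyruvate and lactate, the switch that lets pyruvate into the mitochondrion, the pentose phosphate branch, and the regulators Hif1a and Myc. They are a list of 35 gene symbols, and all 35 were found among the 24421 genes of the table. The series measured polyadenylated RNA of splenic CD8+ T cells, CD4+ T cells and B cells of C57BL/6 mice, sorted by flow cytometry, in 12 samples that form 6 groups of 2. The table used here covers the CD8+ T cells. It compares 2 cTKO samples (1 female and 1 male) with 2 WT samples (1 female and 1 male), each from 500000 sorted cells. Genotype is labelled as cTKO alone, in a series whose title names H1 linker histones, which bind nucleosomes and compact chromatin. The labels do not say which alleles and which driver the deletion used, how old the animals were or whether any were pooled, and nothing states whether p-values cover more than the spread between these animals.

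Glycolysis splits glucose into triose phosphates with a net use of ATP and then returns ATP and NADH as these become pyruvate. Pyruvate is either reduced to lactate or oxidised by the pyruvate dehydrogenase complex, which pyruvate dehydrogenase kinases (PDKs) switch off by phosphorylation. The pentose phosphate pathway branches off after hexokinase and makes NADPH and ribose phosphate for nucleotides. Resting CD8 T cells rely largely on mitochondrial respiration, and activation raises glycolysis, for which MYC and HIF-1 are known transcription factors.

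The table gives no values per sample, but whole reads per library could be solved from it for 18097 of 18153 genes with a read (99.7%). This held for all 35 members, with a single solution for 34 of them. The libraries are called the larger and the smaller of each genotype. Xist had 4871 and 28 reads in the larger and smaller cTKO library and 479 and 2 in WT. Within each genotype this places the female in the larger and the male in the smaller library, although the larger libraries differ widely in Xist. Library size and sex thus cannot be told apart. The solved reads sum to 16130744 and 11381261 in the larger and smaller cTKO library and to 18456003 and 12434855 in WT. The direction of the fold change is not stated in the table so it was taken from 3 linker histone genes. Hist1h1e, Hist1h1c and Hist1h1d had 0 reads in both libraries of 1 side, which was taken as cTKO, and 64 and 112, 41 and 56, and 5 and 11 reads on the other. The larger cTKO library stood apart from the other 3. Among all genes with a mean of at least 4000 normalized reads, the median log2 ratio of this library to the smaller cTKO library was -0.31, against 0.09 between the WT libraries, and genes with a mean under 50 were shifted the other way, by 0.32 against -0.01. The members are mostly abundant genes, 21 of 35 with a mean of at least 1000, and took 0.611% and 0.761% of the solved reads in the larger and smaller cTKO library, against 0.727% and 0.797% in WT.

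Markers show what else differed between the sorted cells. Of 12 CD8 T cell markers, 0 passed the authors' test (DESeq2, adjusted p under 0.05), 2 had an unadjusted p under 0.05 and 0 of 9 passed by limma. The 9 with solved reads summed to 51708 and 71708 normalized reads in cTKO and 80369 and 74844 in WT. Effector and memory genes were higher for 15 of 16 and naive genes lower for 3 of 10. Of early response genes, listed beforehand as markers of handling stress, 7 of 10 tested were lower. Whether handling differed between the samples is not given and was not tested. Of natural killer cell markers, some of which effector CD8 T cells also express, 9 of 12 were higher and 1 lower, with sums of 11876 and 10460 in cTKO against 1863 and 2037 in WT. Their defining marker Ncr1 had 22 and 1 reads in cTKO and 2 and 4 in WT. Myeloid markers were higher for 2 of 9 tested (Itgam and Itgax, integrins that activated T cells can carry). Of the 9, 8 had a log2 fold change above 0 and 1 below, beside 51.9% of all tested genes above 0 and 75.3% of those with a mean under 50. Csf1r did not pass (adjusted p 0.285 per the authors' deposited table), at 25 and 6 reads in cTKO against 2 and 3 in WT. Lyz2 had 43 and 6 reads in cTKO against 20 and 11 in WT, and Spi1 had 4 and 3 against 6 and 7. B cell markers were lower for 3 of 8 tested, with sums of 1073 and 328 in cTKO and 1938 and 1679 in WT, and erythroid and platelet markers were lower for 1 of 6 tested. CD4 T cell markers were higher for 1 of 5 tested, and cell cycle genes for 7 of 24. The part of these differences in any result below was not tested. In bulk RNA, a change in the share of cells that make a transcript and a change in its amount per cell cannot be told apart.

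Of the 35 genes, 5 passed the authors' test, 2 higher and 3 lower in cTKO. That is 14.3% of the members, beside 13.4% of all 12972 tested genes, a share close to the background. The higher calls were Hk3 and Pfkfb2, and the lower ones Pdk1, Pdk2 and Pkm. In the background, 9.77% of tested genes were higher and 3.61% lower. By class of mean, lower calls made up 3.88% at 200 to 1000, 4.69% at 1000 to 4000 and 7.59% from 4000. Higher calls made up 17.7% at 50 to 200 and 8.37% at 200 to 1000. These are the classes of the 5 genes. The other 30 members differed by less than 2-fold per the authors' deposited table, and 8 of the 35 members had an unadjusted p under 0.05. The share of all tested genes at that unadjusted cut was not counted. It is at least the 13.4% that passed after adjustment, so no count at an unadjusted p in this text is read as an excess. The median log2 fold change over the members was -0.13, beside 0.04 over all tested genes. Members with a mean of 1000 to 4000 had a median of -0.24 (15 genes) beside -0.19 over all tested genes of that class, and those from 4000 had -0.10 (6 genes) beside -0.28. Limma on the solved reads called 7.71% of genes higher and 1.97% lower. By limma Hk3, Pfkfb2 and Pdk1 passed (adjusted p 0.00291, 0.0426 and 0.00920), while Pdk2 and Pkm did not (0.0633 and 0.0974). With either cTKO library left out, none of the 5 passed by limma (adjusted p 0.109 to 0.399), although each kept its direction.

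**Figure D1:**
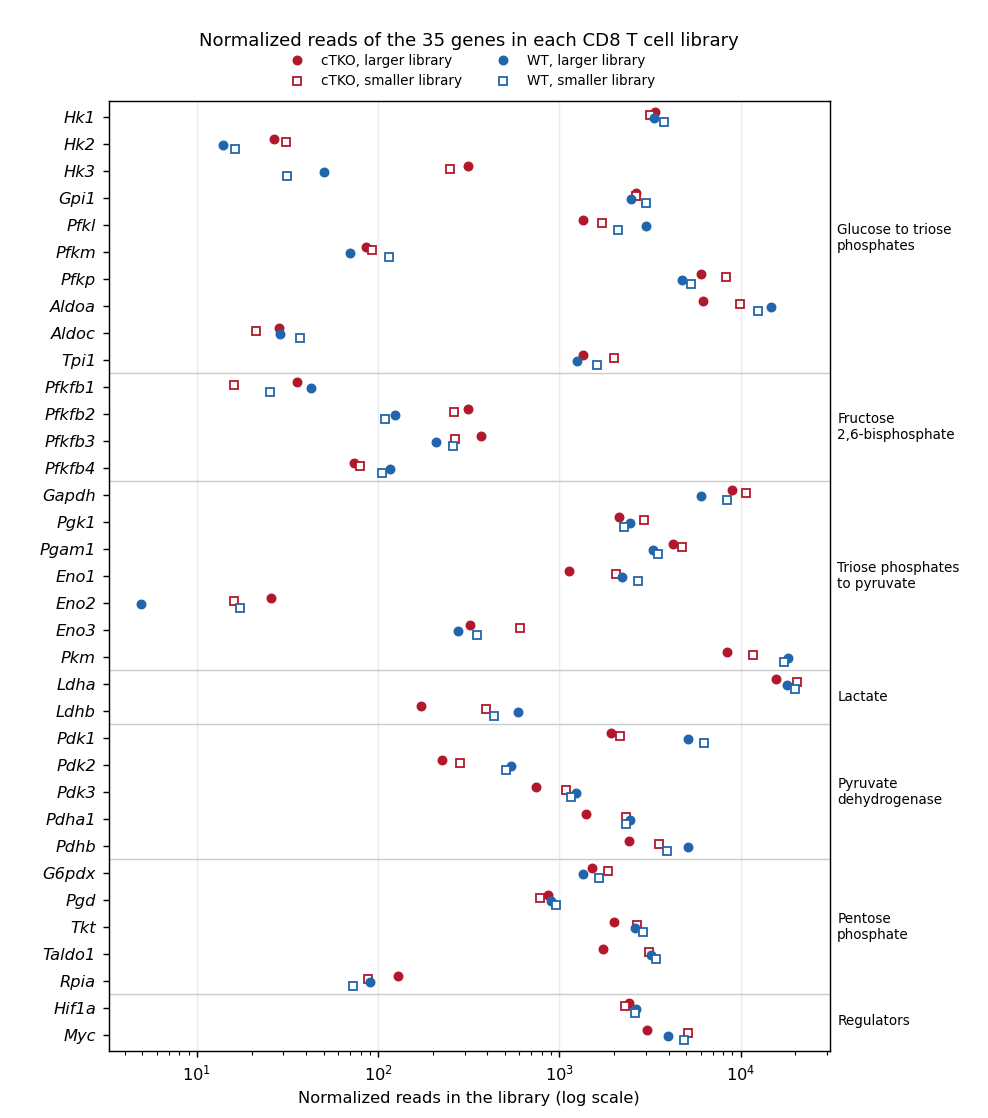
Normalized reads (log scale) of each of the 35 genes, in rows by role, in the larger (filled circles) and smaller (open squares) library of cTKO (red) and WT (blue). Hk3 and Pfkfb2 lie apart to the right in cTKO, Pdk1, Pdk2 and Pkm to the left, and for 13 genes the genotypes overlap.

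**Figure D2:**
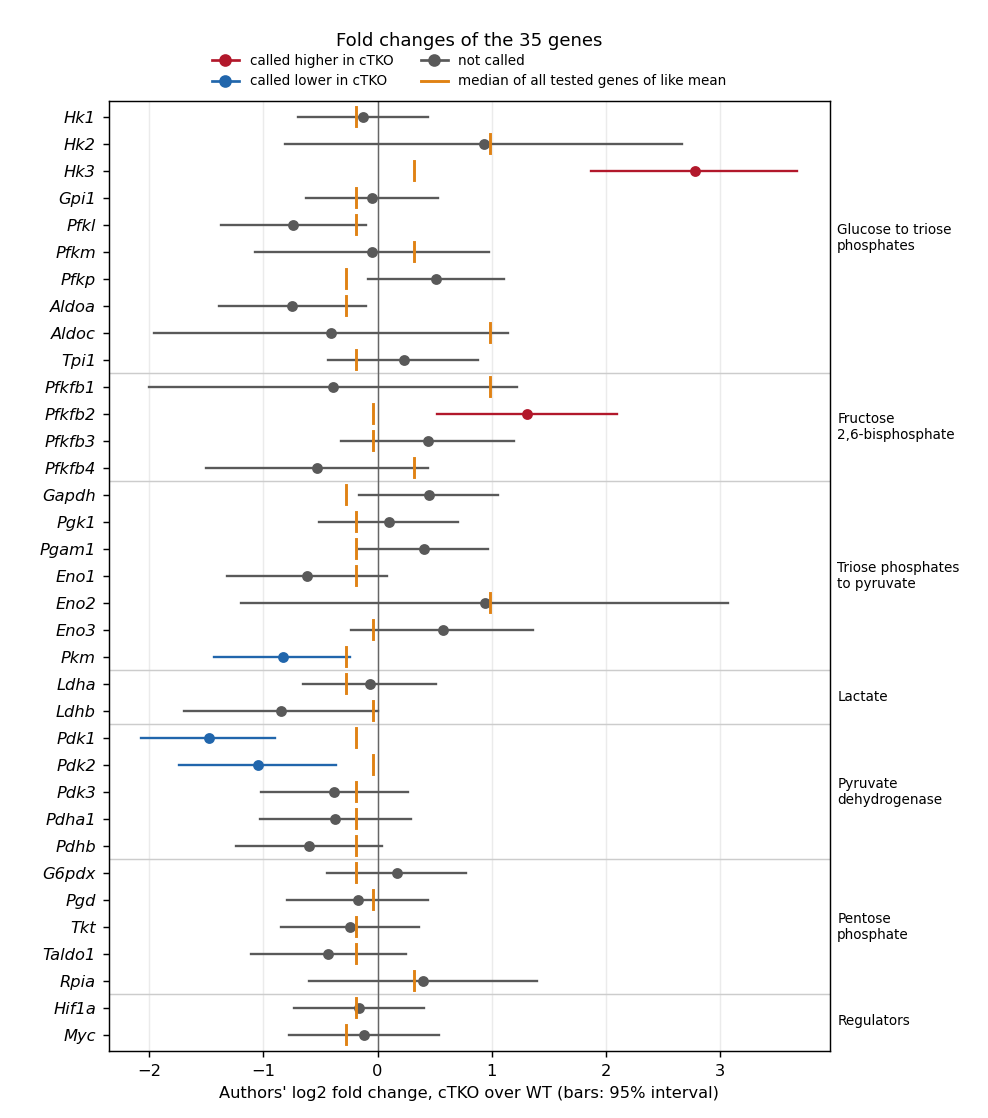
The authors' log2 fold changes of cTKO over WT with 95% intervals, in rows by role. Red and blue genes passed the authors' test, and orange ticks are medians of all tested genes of like mean, which lie at 0.99 for means under 50 and at -0.28 for means from 4000.

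Of the 5 genes that changed, the stretches upstream of transcription starts of 4 are shown, as the regions where HIF-1 and MYC sites would be looked for. The letters ACGTG and GCGTG, the core of the HIF-1 site, and CACGTG, the MYC E-box, were searched on both strands in the 250 bases before each start in RefSeq (GRCm38.p6). Each CACGTG also holds ACGTG. The first of these occurred in 18 of 54 windows of the members (33.3%, in 14 of 34 members with a window) and in 16.6% of all 32851 windows. GCGTG occurred in 53.7% of the members' windows and 28.2% of all, and CACGTG in 11.1% and 6.02%. Capitals mark these letters or their reverse complement, and bases that an annotation places in an exon are left out.
Hk3, chr13:55021476-55021635, minus strand: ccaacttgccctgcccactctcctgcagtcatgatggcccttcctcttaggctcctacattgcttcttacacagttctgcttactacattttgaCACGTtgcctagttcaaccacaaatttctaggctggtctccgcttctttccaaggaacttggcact
Pfkfb2, chr1:130716049-130716298, minus strand: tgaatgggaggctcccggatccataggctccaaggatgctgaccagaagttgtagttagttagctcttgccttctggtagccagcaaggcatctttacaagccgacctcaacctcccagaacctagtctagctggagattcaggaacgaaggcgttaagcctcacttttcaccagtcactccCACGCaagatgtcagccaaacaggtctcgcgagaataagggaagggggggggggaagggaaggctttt
Pdk1, chr2:71872974-71873214, plus strand: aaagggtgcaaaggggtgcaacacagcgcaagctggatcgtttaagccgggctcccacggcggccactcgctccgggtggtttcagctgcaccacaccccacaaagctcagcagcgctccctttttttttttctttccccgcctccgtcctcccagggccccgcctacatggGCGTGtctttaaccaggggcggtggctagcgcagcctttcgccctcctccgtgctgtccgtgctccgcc
Pdk2, chr11:95041372-95041621, minus strand: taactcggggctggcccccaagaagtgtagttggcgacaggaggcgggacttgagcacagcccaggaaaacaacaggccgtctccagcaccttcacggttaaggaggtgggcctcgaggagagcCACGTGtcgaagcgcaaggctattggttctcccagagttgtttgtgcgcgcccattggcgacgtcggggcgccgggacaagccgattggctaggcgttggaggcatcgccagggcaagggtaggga
Of these windows, that of Hk3 holds CACGT, the reverse complement of ACGTG, that of Pfkfb2 the reverse complement of GCGTG, that of Pdk1 GCGTG and that of Pdk2 a full CACGTG. Where RefSeq gives a gene several starts, the window of the farthest upstream start is shown. Pfkfb2 has 3 windows, and another of them holds CACGTG 1 time and GCGTG 2 times, while the last holds ACGTG. The second window of Pdk1 and that of Pdk2 hold none of the letters. Pkm has 2 windows, of which the farther upstream leaves 42 bases outside exons and none of the letters, and the other holds ACGTG. A match is a description of these letters in these windows.

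Hexokinase commits glucose to the cell by phosphorylating it. Hk3 was the member with the largest change. It had 313 and 248 normalized reads in the larger and smaller cTKO library, against 50.2 and 31.2 in WT. Both cTKO libraries lay far above both WT libraries. Per the authors' deposited table it was 6.85-fold higher (a log2 fold change of 2.78 with SE 0.46 and adjusted p 1.26e-07). Hk3 codes for a hexokinase found mainly in blood cells of the myeloid lineage, at chromosome 13, 55005985 to 55021475 (GRCm38.p6, minus strand). An exon of Unc5a, a netrin receptor gene on the other strand, overlaps one of Hk3. Unc5a had 704 and 407 reads in cTKO and 106 and 109 in WT, and was higher too per the authors' deposited table (log2 fold change 2.36, adjusted p 4.44e-08). Whether the counting used strand is not given, so reads in the shared stretch cannot be assigned. The most abundant isoenzyme, Hk1, which sits on mitochondria, had 3353 and 3145 normalized reads in cTKO and 3321 and 3795 in WT. Its groups overlapped (log2 fold change -0.13, SE 0.29 per the authors' deposited table). Hk2, the isoenzyme that activation induces in T cells, was at the edge of detection in all libraries, with 32 and 25 reads in cTKO and 17 and 14 in WT. Its fold change per the authors' deposited table had a 95% interval from -0.81 to 2.67 on the log2 scale, which holds no change as well as a rise of several fold.

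Within each library the hexokinase reads can be shared out among the isoenzymes, and such a share does not depend on library scaling. Hk3 took 8.48% and 7.25% of hexokinase reads in cTKO, against 1.48% and 0.811% in WT. Exact binomial 95% intervals, which cover counting error only, were 6.31% to 8.29% for the smaller cTKO and 1.14% to 1.90% for the larger WT library. Per kilobase of exon, Hk3 averaged 83.7 normalized reads in cTKO and 12.1 in WT, against 670 and 733 for Hk1. With 2 libraries a genotype, an exact permutation test of any single share cannot go below p = 0.333, so shares are given as descriptions.

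The next committed step is that of phosphofructokinase, which has liver (Pfkl), muscle (Pfkm) and platelet (Pfkp) isoenzymes. Pfkp had 6045 and 8311 normalized reads in cTKO and 4756 and 5294 in WT. Pfkl had 1352 and 1712 in cTKO and 2984 and 2115 in WT. The libraries of the 2 genotypes separated for both genes, with Pfkp above and Pfkl below WT. Neither passed the authors' test: the log2 fold changes per the authors' deposited table were 0.51 for Pfkp (SE 0.31, adjusted p 0.278) and -0.74 for Pfkl (SE 0.32, adjusted p 0.117). Pfkp made up 80.8% and 82.2% of phosphofructokinase reads in cTKO, against 60.9% and 70.4% in WT. The mean shares were 81.5% and 65.6%, a difference of 15.84 percentage points, beside a standard deviation between libraries of at most 6.70 points. The WT libraries differed more from each other than the cTKO libraries did. Pfkm had 86.1 and 91.9 normalized reads in cTKO and 70.0 and 114 in WT, with overlapping groups. Gpi1, the isomerase between the hexokinase and phosphofructokinase steps, hardly differed (2659 and 2650 normalized reads in cTKO, 2489 and 2996 in WT).

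Phosphofructokinase is switched on by fructose 2,6-bisphosphate made by the bifunctional PFKFB enzymes, which both make and remove this activator. Pfkfb2, whose product is a target of AKT in heart, had 312 and 263 normalized reads in cTKO and 124 and 109 in WT. The 2 cTKO libraries were close to each other and well above the 2 WT libraries. It was 2.48-fold higher per the authors' deposited table (a log2 fold change of 1.31 with SE 0.40 and adjusted p 0.0131). Pfkfb2 lies on chromosome 1, 130689043 to 130729253 (minus strand), and shares exon sequence with Yod1, a deubiquitinase gene on the other strand. Yod1 also passed, at a log2 fold change of 1.37 and an adjusted p of 0.0324 per the authors' deposited table, with 373 and 130 reads in cTKO against 122 and 71 in WT. An exon of Gm29427, on the same strand as Pfkfb2, overlaps it too. As for Hk3, reads in the shared stretches cannot be assigned. Pfkfb3, the most strongly kinase-biased form, had 369 and 266 normalized reads in cTKO and 209 and 260 in WT, and Pfkfb4 had 73.7 and 79.5 in cTKO and 116 and 105 in WT. The smaller libraries hardly differed for Pfkfb3 (266 against 260). Neither passed, with log2 fold changes of 0.44 and -0.53 per the authors' deposited table, nor did Pfkfb1, which had 43 and 13 reads in cTKO and 52 and 22 in WT. Pfkfb2 took 39.5% and 42.1% of PFKFB reads in cTKO, against 25.1% and 21.8% in WT. Pfkfb4 took 9.33% and 12.7% in cTKO, against 23.6% and 21.1% in WT. Both shares differed by more than the standard deviation between libraries, which was at most 2.38 points for Pfkfb2 and 2.40 points for Pfkfb4.

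Aldolase and triose phosphate isomerase end the first stage of glycolysis. Aldoa, the main aldolase, had 6163 and 9954 normalized reads in cTKO and 14639 and 12391 in WT. Both cTKO libraries were below WT, but most of the gap came from the larger pair, with log2 ratios of -1.25 between the larger and -0.32 between the smaller libraries. The log2 fold change of -0.75 (SE 0.33) did not pass per the authors' deposited table (adjusted p 0.115). Aldoc, a form of brain, had 34 and 17 reads in cTKO and 35 and 32 in WT. Tpi1 had 1355 and 1988 normalized reads in cTKO and 1247 and 1611 in WT, with overlapping groups.

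In the second stage, Gapdh oxidises triose phosphate and Pgk1 and Pkm return ATP. Gapdh had 8986 and 10706 normalized reads in cTKO and 6001 and 8409 in WT, so the cTKO libraries were higher in both pairs. The smaller WT library came close to the larger cTKO one, and the gene did not pass (a log2 fold change of 0.45 with SE 0.31 and adjusted p 0.363 per the authors' deposited table). Pgam1, a phosphoglycerate mutase, had 4220 and 4729 in cTKO and 3276 and 3483 in WT and did not pass either (log2 fold change 0.41, adjusted p 0.383 per the authors' deposited table). Pgk1 overlapped, at 2117 and 2923 in cTKO and 2445 and 2261 in WT. Pkm, the pyruvate kinase of most tissues outside the liver, went the other way. It had 8400 and 11622 normalized reads in cTKO and 18321 and 17345 in WT. It fell 1.78-fold per the authors' deposited table (a log2 fold change of -0.83 with SE 0.30), with an adjusted p of 0.0455 just inside the threshold. The M1 and M2 forms of Pkm come from 1 gene (chromosome 9, 59656576 to 59679372, plus strand) and are not told apart by gene counts. An exon of Gm49759, on the same strand, overlaps one of Pkm. The call is marginal: it was lost in every alternative but the stricter mean filter, with adjusted p between 0.0636 and 0.492.

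Enolase, the step before pyruvate kinase, comes in 3 isoenzymes named for most tissues (Eno1), neurons (Eno2) and muscle (Eno3). Eno3 had 322 and 607 normalized reads in cTKO and 274 and 352 in WT, which overlapped. Eno1 had 1133 and 2061 in cTKO and 2213 and 2695 in WT, with both cTKO libraries lower. Neither passed, at log2 fold changes of 0.57 and -0.62 (adjusted p 0.383 and 0.255) per the authors' deposited table. Eno3 made up 21.8% and 22.6% of the reads of the 3 genes in cTKO, against 11.0% and 11.5% in WT, a difference of 10.94 points beside a standard deviation of at most 0.62 points. Each genotype's libraries were nearly equal. Eno1b, a near-identical copy of Eno1, had 8496 and 9822 reads in cTKO and 18250 and 13271 in WT, several times those counted for Eno1, so reads of the 2 genes could be split between them. With Eno1b added to Eno1, Eno3 took 3.78% and 4.08% in cTKO against 1.57% and 1.92% in WT, an alternative chosen after its values were seen. Eno2 had 31 and 13 reads in cTKO and 6 and 15 in WT, too few for more than a wide interval of -1.20 to 3.07 on the log2 scale per the authors' deposited table.

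**Figure D3:**
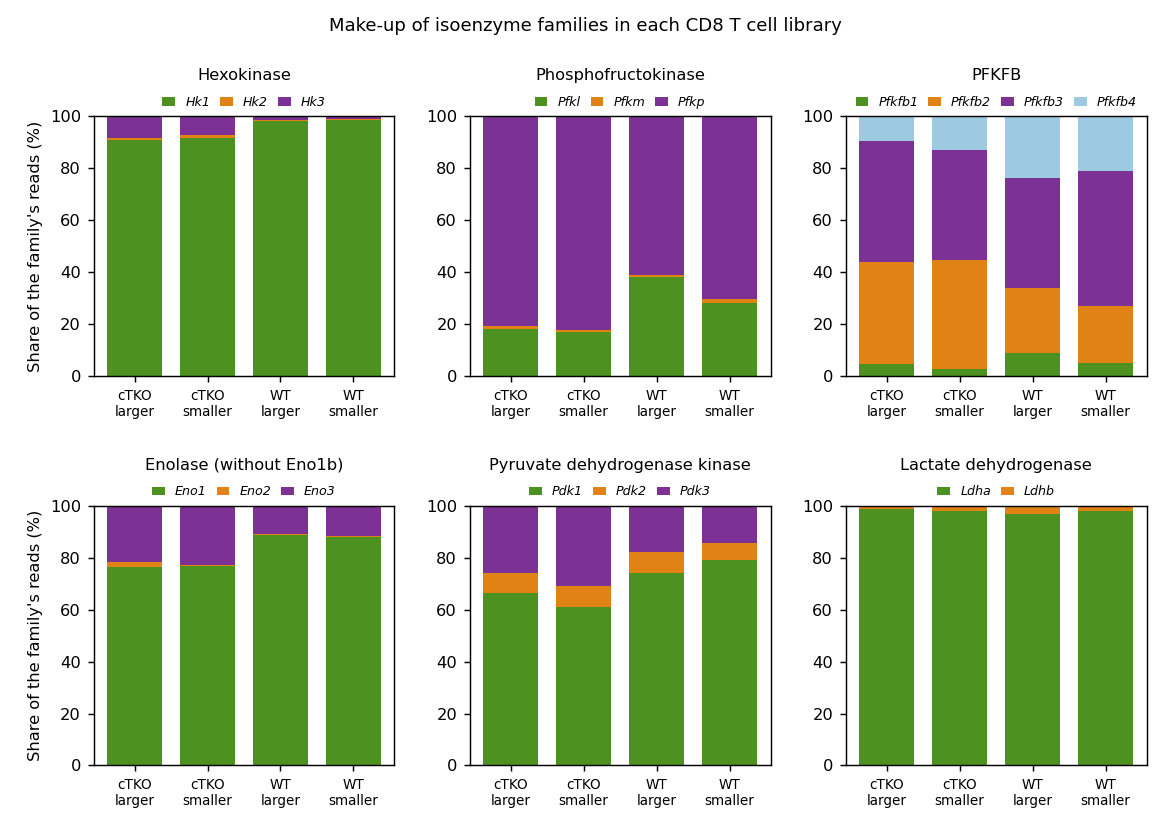
Share of the reads of 6 isoenzyme families in each library, cTKO left and WT right, stacked by gene from 0 to 100%. Hk3, Pfkp, Pfkfb2, Eno3 and Pdk3 take larger shares in both cTKO libraries than in either WT library.

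Lactate dehydrogenase turns pyruvate into lactate. Ldha was the most abundant member, with 15704 and 20475 normalized reads in cTKO and 18069 and 19868 in WT. The genotypes did not separate, and the log2 fold change per the authors' deposited table was -0.07 (95% interval -0.65 to 0.51). These reads are 1 of 2 solutions, chosen because libraries of 1 genotype then lie within 2-fold, and the other solution puts 2.81-fold between the WT libraries. Ldhb, the heart form, had 173 and 395 in cTKO and 590 and 433 in WT. Its larger cTKO library was by far the lowest, and the smaller pair hardly differed (log2 ratio -0.13). It did not pass (log2 fold change -0.85, adjusted p 0.188 per the authors' deposited table).

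All 5 genes at the gate from pyruvate to the mitochondrion, the kinases Pdk1, Pdk2 and Pdk3 and the E1 subunits Pdha1 and Pdhb, had lower normalized reads in both cTKO libraries than in both WT libraries. For scale, 28.3% of the 12917 tested genes with solved reads were lower in this way, and 42.1% of those with a mean of at least 1000. Their median log2 fold change was -0.60, and 2 of them passed. Pdk1, a kinase that shuts pyruvate dehydrogenase and a known HIF-1 target, had 1917 and 2159 normalized reads in cTKO and 5095 and 6300 in WT. Both pairs of libraries showed a drop of like size, with log2 ratios of -1.41 between the larger and -1.54 between the smaller libraries. Per the authors' deposited table Pdk1 fell 2.80-fold (a log2 fold change of -1.48 with SE 0.30 and adjusted p 2.19e-05). Pdk1 lies on chromosome 2, 71873215 to 71903858 (plus strand), and no exon of another gene overlaps it. Pdk2 (chromosome 11, 95026258 to 95041371, minus strand) had 225 and 281 normalized reads in cTKO and 539 and 510 in WT. It fell 2.08-fold per the authors' deposited table (a log2 fold change of -1.05 with SE 0.35 and adjusted p 0.0261). Pdk3 did not pass, at 745 and 1091 in cTKO and 1228 and 1154 in WT. Its smaller libraries were almost level.

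The make-up of the kinases differed as well. Pdk1 gave 66.4% and 61.2% of PDK reads in cTKO, against 74.3% and 79.1% in WT. Pdk3 gave 25.8% and 30.9% in cTKO, against 17.9% and 14.5% in WT. The difference for Pdk1 was -12.91 points beside a standard deviation of at most 3.71 points, and for Pdk3 12.16 points beside 3.60. Summed over the family, PDK reads came to 2886 and 3531 normalized reads in cTKO and 6862 and 7964 in WT. The substrate of the kinases is the E1 enzyme. Pdha1 had 1394 and 2322 normalized reads in cTKO and 2459 and 2329 in WT, and Pdhb 2408 and 3555 in cTKO and 5100 and 3918 in WT. The smaller libraries were level for Pdha1, and neither gene passed (log2 fold changes -0.37 and -0.60, adjusted p 0.522 and 0.229 per the authors' deposited table). A further list on pyruvate entry held pyruvate carriers, other complex subunits, phosphatases and pyruvate carboxylase. Of its 9 tested genes, 0 passed the authors' test (DESeq2) or limma. An unadjusted p under 0.05 was found for 2, with no share over all tested genes to set beside it. The median log2 fold change of the 9 was -0.43, with 8 of 9 below 0. For scale, 51.9% of all tested genes lay above 0. By class of mean, the share above 0 was 63.3% at 50 to 200, 47.1% at 200 to 1000 and 35.6% at 1000 to 4000.

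**Figure D4:**
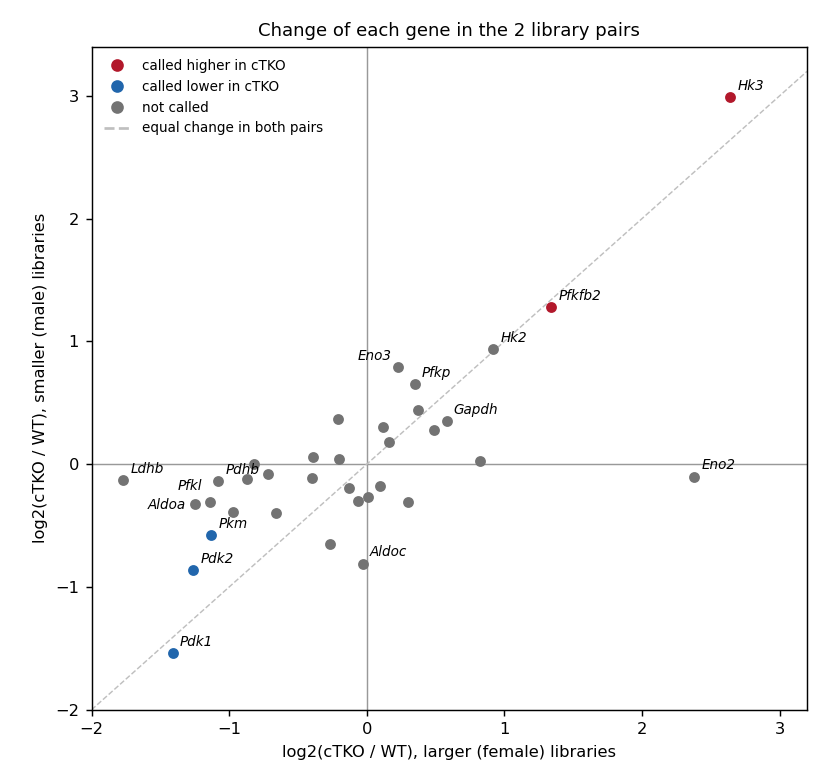
log2 ratio of cTKO to WT normalized reads for each gene, between the larger libraries (horizontal) and between the smaller ones (vertical), with the dashed line of equal change. Hk3, Pfkfb2 and Pdk1 lie near that line, while Eno2, Ldhb and Aldoa differed mainly between the larger libraries.

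Both library pairs gave the same sign for 28 of the 35 members, 17 lower and 11 higher, a count that was not made over all tested genes. The 5 genes that passed are among them. They were called on these same libraries, which makes a shared sign likely, so it is no replication. For many of the other members the larger libraries carried most of the difference: the median log2 ratio of members with a mean of 1000 to 4000 was -0.40 between the larger libraries and -0.12 between the smaller ones, beside -0.33 and -0.06 over all genes of that class. In all, 7 members had both cTKO libraries above both WT libraries, 15 had both below, and 13 overlapped. Over the 12917 tested genes with solved reads, 31.3% lay above and 28.3% below. Among those with a mean of at least 1000, as 21 of the members have, 17.8% lay above and 42.1% below.

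None of the 5 pentose phosphate genes passed the authors' test or had an unadjusted p under 0.05, and 3 of them overlapped between genotypes. Of all tested genes, 13.4% passed. Over those with solved reads, 31.3% had both cTKO libraries above both WT libraries and 28.3% had both below. G6pdx, the first and rate-limiting enzyme of the branch, had 1504 and 1863 normalized reads in cTKO and 1349 and 1643 in WT (log2 fold change 0.17, 95% interval -0.44 to 0.78 per the authors' deposited table). Pgd, the other NADPH-making enzyme, had 865 and 778 in cTKO and 901 and 955 in WT. The genotypes overlapped for G6pdx, and for Pgd both cTKO libraries lay below WT. Of the sugar-exchanging enzymes, Tkt had 1989 and 2662 in cTKO and 2619 and 2879 in WT. Taldo1 had 1746 and 3137 in cTKO and 3183 and 3398 in WT, low mainly in the larger cTKO library. Rpia, which makes ribose phosphate, had 154 and 71 reads in cTKO and 110 and 63 in WT. The 5 log2 fold changes ran from -0.43 to 0.40.

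Neither of the 2 regulators on the list passed the authors' test. Hif1a had 2411 and 2298 normalized reads in cTKO and 2639 and 2621 in WT, which separates the genotypes by a small step (log2 fold change -0.16, 95% interval -0.73 to 0.41 per the authors' deposited table). Myc had 3049 and 5093 in cTKO and 3985 and 4877 in WT, a range within cTKO that spans both WT values. Its log2 fold change was -0.12 (95% interval -0.78 to 0.54) per the authors' deposited table. Of 21 tested genes of the HIF pathway, 1 was higher and 2 lower by the authors' test, beside 9.77% and 3.61% of all tested genes, and by limma 1 was higher and 0 lower. Slc16a3, the lactate exporter MCT4, was 7.32-fold higher per the authors' deposited table (adjusted p 9.08e-04), from 150 and 54 reads in cTKO against 10 and 16 in WT. Bnip3, a mitophagy receptor, and Egln2, an oxygen-sensing hydroxylase, were lower, with log2 fold changes of -1.29 and -0.88 (adjusted p 0.0224 and 0.0303) per the authors' deposited table. The glucose transporters did not pass: Slc2a1 had 1429 and 1462 normalized reads in cTKO and 1458 and 1327 in WT, and Slc2a3 had 2899 and 2343 in cTKO and 2865 and 1891 in WT. Of 22 tested genes of the MYC network, 4 were higher and 0 lower by the authors' test, again beside 9.77% and 3.61% of all tested genes. In these directions 5 and 3 had an unadjusted p under 0.05, again with no share over all tested genes, and 0 passed by limma without sex in the fit. The 4 were Cad and Odc1, which start pyrimidine and polyamine synthesis, and Mxd3 and Mga, which code for partners of MAX, with log2 fold changes of 1.79, 0.98, 1.41 and 1.09 per the authors' deposited table. Cad and Mga were high mainly in the larger cTKO library, with 2508 and 733 normalized reads in cTKO against 385 and 551 in WT for Cad, and 2140 and 1026 against 730 and 759 for Mga. Odc1 was level within genotypes, at 1902 and 1958 in cTKO and 936 and 1021 in WT.

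Among 23 further tested enzymes of glycolysis and the pentose phosphate pathway, 0 passed the authors' test (DESeq2) or limma. At an unadjusted p under 0.05 there were 8, a count with no share over all tested genes beside it. The median log2 fold change of the 23 was 0.02. The members sit on 14 chromosomes, with 5 on the X (Pfkfb1, Pgk1, Pdk3, Pdha1 and G6pdx). Eno2, Tpi1 and Gapdh lie within 406 kb of each other on chromosome 6. Their log2 fold changes of 0.94, 0.23 and 0.45 per the authors' deposited table were all above 0, as were those of 51.9% of all tested genes, and none passed. Levels per kilobase of exon were ranked among the members alone, without the reads of Eno1b that could belong to Eno1. The order was Ldha (9546 normalized reads in cTKO and 10010 in WT), Gapdh (6586 and 4819), Aldoa (4418 and 7410) and Pkm (3852 and 6861). Gapdh thus ranked above Pkm and Aldoa in cTKO and below both in WT, although the Gapdh and Aldoa differences did not pass. At the low end were Hk2 (5.13 in cTKO and 2.69 in WT) and Eno2 (7.48 and 3.98).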

How the data were processed

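Libraries were paired-end and made from polyadenylated RNA, per the labels' protocols. The submitters' processing notes name STAR, DESeq2 and the builds mm10 and GRCm38.p6. No source used here gives the counting tool, its use of strand, the annotation or versions. The deposited mean normalized count is a signal over the 4 libraries, per the file headers, and its steps show counts over size factors. Also deposited, the log2 fold change with its standard error, the test score, and the p-value and adjusted p-value are used as the authors left them. An adjusted p was given for 12972 genes, with means from 3.45.

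Whole reads were solved from the mean, fold change and standard error, by refitting a negative binomial model in Python (3.11.15, numba 0.67.0) and keeping whole numbers that return the deposited mean and log2 fold change, the last within 7e-10 (14003 genes and the 29 below). For 4065 others, mostly with few reads, the mean and the sign of the fold change left 1 solution. In reads simulated for 1245 genes of the first kind (mean of at least 5), 1243 were solved and all 1243 were right. Where several solutions were left (29 genes, among them Ldha), the 1 with libraries of each genotype within 2-fold was kept. Size factors were 1.207396 and 0.804969 (cTKO) and 1.214423 and 0.866028 (WT). Normalized reads are reads over these. Solved genes leave out 56 genes with 12.3% of the summed means.

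The authors' test, called at an adjusted p under 0.05 over all tested genes, is the main result, and limma (3.58.1, R 4.3.3) on log2(normalized reads + 0.5) an alternative, with Benjamini-Hochberg adjustment over 12917 genes. Others changed the filter, centring, scaling and libraries. All 35 members were named. From further lists, genes that passed were named, up to 6 a list. The glucose transporters, Ncr1, Csf1r, Lyz2, Spi1, Pdpr, Tktl1 and genes that share exons or sequence with a member were named after their values were seen. The members and lists were chosen with earlier results of these data known.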

Additional observations from a re-analysis of the deposited data

How the results depend on the processing

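Of 385 values of the members under alternatives, 339 kept direction and side of the threshold, 26 lost the call and 20 reversed, the last all among genes that had not passed. Re-centring on genes of the same class of mean turned Hk1 to 0.06, Hk2 to -0.05, Gpi1 to 0.14, Eno2 to -0.05, Ldha to 0.21, Hif1a to 0.03 and Myc to 0.15 on the log2 scale. Re-centring on genes with a mean of at least 100, a shift of -0.10, turned Gpi1 to 0.05, Pfkm to 0.06 and Ldha to 0.03, and upper-quartile scaling (a shift of 0.08) turned Gpi1 to 0.04 and Pfkm to 0.07. Leaving out 1 library gave ranges of -0.17 to 0.09 for Gpi1, -0.36 to 0.34 for Pfkm, -1.01 to 0.11 for Pfkfb1, -0.06 to 0.49 for Tpi1, -0.15 to 0.31 for Pgk1, -0.27 to 0.11 for Ldha and -0.53 to 0.21 for Myc. The causes were not tested.

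Calls were sensitive to the test and to single libraries. Limma called 1 member lower (Pdk1), also with upper-quartile scaling, and 254 or, with that scaling, 223 of all genes lower. With 1 library left out, limma called 0 to 1 members higher and 0 to 0 lower, 216 to 706 of all genes higher and 2 to 94 lower, the smallest counts without a cTKO library. A lone library was then assumed to vary like those of the other genotype. These fits also called 0 to 1 of the further enzymes and 0 to 1 of the HIF genes higher and 0 to 0 of the MYC genes. Limma called 0 HIF genes lower, with either scaling, and of MYC genes 0 higher, or 1 (Odc1) with upper-quartile scaling. Either re-centring left 1 HIF gene lower (Bnip3), and re-centring on a mean of at least 100 called 1 pyruvate entry gene higher (Pdpr). With sex as a replicate block limma called 1 further enzyme (Tktl1) and 1 pyruvate entry gene (Pdpr) higher. This fit called 5 MYC genes higher (Cad, Mga, Mxd1, Mxd3 and Odc1) and 1 lower (Max), 1 HIF gene higher (Slc16a3) and 2 lower (Bnip3 and Egln1), 1682 of all genes higher and 518 lower, and of the members Hk3, Pfkfb2, Pdk1 and Pdk2 (adjusted p 0.0339). Sex is the label that the libraries of 2 genotypes share and it is not separable from library size, so the block is no pairing of animals.

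Per kilobase of exon, the cTKO minus WT share differences moved to -9.67 points for Hk1, 9.35 for Hk3, -6.37 for Pfkfb1, -15.23 for Eno1, 14.62 for Eno3, -0.35 for Pdk2 and 15.99 for Pdk3, and that of Pfkfb3 to 0.89, against -2.72 on reads, both within the standard deviation between libraries. With Eno1b added to Eno1 they came to -2.34 points for Eno1 and 2.19 for Eno3. Depth limits Hk2, Eno2, Aldoc and Pfkfb1, each with a mean under 50.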

Other observations

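Several enzymes outside the 35 showed differences that did not pass the correction. Of the 8 further enzymes with an unadjusted p under 0.05 in the authors' deposited table, 5 were higher in cTKO. Bpgm, which makes bisphosphoglycerate, had 768 and 1093 normalized reads in cTKO and 579 and 545 in WT (log2 fold change 0.73, adjusted p 0.140, in the authors' deposited table). Minpp1, a phosphatase that can remove that product, had 755 and 974 in cTKO and 1404 and 1491 in WT (log2 fold change -0.74, adjusted p 0.0980, in the authors' deposited table). Both genes separated the genotypes in both library pairs. Pgm2, a phosphoglucomutase, had 557 and 737 in cTKO and 1083 and 1083 in WT. Pdpr, a regulator of the pyruvate dehydrogenase phosphatase, had 489 and 158 in cTKO and 110 and 141 in WT, so its adjusted p of 0.0546 in the authors' deposited table rested mainly on the larger cTKO library. Tktl1, a transketolase-like gene, had 46 and 12 reads in cTKO and 9 and 0 in WT, and its call by limma with sex as a block rests on these few reads.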
